A study of Mus musculus with 12 samples.

Results

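The protein kinase C isoforms examined here are the products of 8 mouse genes, Prkca, Prkcb, Prkcd, Prkce, Prkch, Prkcq, Prkci and Prkcz. The rule takes members by name and uses no measured value: every probe set annotated to 1 of these genes alone. It gave 10 probe sets of 8 genes among 19938 named genes on the array of macrophages and liver, and 13 probe sets of 8 genes among 12394 named genes on the array of the aorta. None of these probe sets was shared with another gene in the annotation.

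Every mouse in the study lacked Apoe, the apolipoprotein with which the liver clears lipoprotein remnants, on a C57BL/6J background. Controls were Apoe-/- and knockouts were Prkch-/-Apoe-/-, so all differences between genotypes are in mice prone to high blood cholesterol. Macrophages were elicited into the peritoneum with thioglycolate in females on regular diet and left unstimulated, with 3 arrays per genotype from mice of 18, 17 and 27 weeks as replicates 1, 2 and 3. Livers came from re-fed males of 20 weeks after 12 weeks of high-fat diet, with 2 arrays for each genotype. Fed males matched to these in age and diet gave the aortas, whose RNA was pooled from 4 mice for each genotype and hybridised to 1 array. Liver and aorta were perfused with saline. Which part of Prkch was removed is not stated in the labels.

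Protein kinase C enzymes are serine and threonine kinases that carry signals from phospholipid breakdown at the membrane. When phospholipase C cuts phosphatidylinositol bisphosphate, calcium and diacylglycerol activate the conventional isoforms alpha and beta (Prkca, Prkcb). Diacylglycerol without calcium activates delta, epsilon, eta and theta (Prkcd, Prkce, Prkch, Prkcq), while the atypical isoforms iota and zeta (Prkci, Prkcz) need neither and work in cell polarity complexes. In myeloid cells, beta and delta act in the oxidative burst and in receptor signalling. Theta is best known downstream of the T cell receptor. In liver, diacylglycerol-activated isoforms are known for their part in insulin resistance.

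The start regions of 4 isoforms are printed because their levels went in different directions between control macrophages and control liver (below, Prkcb higher in macrophages, Prkca and Prkcz lower, Prkci not called). Each runs from 250 to 31 bases upstream of a listed start, from RefSeq on GRCm38.p6. It is 220 bases long, 5′ to 3′ on the strand of the gene. For Prkcb and Prkci the listed start lies inside the annotated gene, which begins at 122289104 and 30995742. The windows are chr7:122288875-122289094 on the plus strand for Prkcb, chr11:108343919-108344138 on the minus strand for Prkca, chr3:30995521-30995740 on the plus strand for Prkci and chr4:155361459-155361678 on the minus strand for Prkcz, the outermost of 3 listed starts. Capitals mark GGGCGG (GC box), ATGCAAAT (octamer) or CCAAT on either strand, and no matches overlap.
Prkcb: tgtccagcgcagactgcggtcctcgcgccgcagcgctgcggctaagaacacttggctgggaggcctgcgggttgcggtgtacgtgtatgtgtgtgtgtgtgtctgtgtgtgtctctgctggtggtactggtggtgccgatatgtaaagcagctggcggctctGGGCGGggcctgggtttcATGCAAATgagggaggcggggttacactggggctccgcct
Prkca: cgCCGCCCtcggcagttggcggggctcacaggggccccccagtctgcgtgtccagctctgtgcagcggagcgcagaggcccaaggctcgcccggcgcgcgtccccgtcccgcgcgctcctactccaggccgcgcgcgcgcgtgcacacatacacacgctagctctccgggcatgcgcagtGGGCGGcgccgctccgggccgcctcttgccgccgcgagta
Prkci: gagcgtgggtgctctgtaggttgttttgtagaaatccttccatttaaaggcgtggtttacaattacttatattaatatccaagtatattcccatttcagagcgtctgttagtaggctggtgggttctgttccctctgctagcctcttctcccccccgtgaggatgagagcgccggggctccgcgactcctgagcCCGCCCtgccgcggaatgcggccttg
Prkcz: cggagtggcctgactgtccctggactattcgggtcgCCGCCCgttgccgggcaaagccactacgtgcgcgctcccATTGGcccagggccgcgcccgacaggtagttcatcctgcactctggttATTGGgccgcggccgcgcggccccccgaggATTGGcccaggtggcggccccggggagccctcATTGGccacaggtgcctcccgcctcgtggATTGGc

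The Prkcb window held 1 octamer and 1 GC box. The octamer, the recognition element of POU factors, occurred in 1.49% of 32851 RefSeq windows of the same length. The Prkcz window held 5 CCAAT matches, a motif present in 31% of windows, beside 1 GC box. GC boxes, present in 28.5% of windows, numbered 2 for Prkca and 1 for Prkci. Of the 8 genes 6 had a listed start. The windows of Prkcd and Prkcq overlap the annotated gene, are not printed, and held 4 and 1 GC boxes. CpG pairs numbered 33 for Prkca, 27 for Prkcq, 22 for Prkcz, 16 for Prkcd, 15 for Prkcb and 12 for Prkci, against a median of 5 over all windows. These matches describe the letters in the window. The octamer and CCAAT motifs were chosen after the sequences had been seen.

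The macrophage arrays had medians of 6.57 to 6.77 log2 units and the liver arrays 5.88 to 5.93. The sample labels name no batch. Macrophage arrays that shared more than 20 exactly equal values were put in 1 inferred batch. Batch 1 held control replicates 1 and 2 with knockout replicate 1, with 53 to 69 equal values for each pair of arrays. Batch 2 held control replicate 3 with knockout replicates 2 and 3, with 16075 to 18000. Pairs across the batches shared 0 to 3. Values are given within each inferred batch as well. Control replicate 3 and knockout replicate 3 read the same value, to all deposited decimals, for 55.7% of macrophage genes and for 5 of 8 isoforms (Prkca, Prkcd, Prkce, Prkci and Prkcq). Over all 3 arrays of batch 2, 66.1% of genes had at least 2 equal values and 6192 of 15039 had 3, so the standard errors and calls in macrophages rest on many tied values. How such ties arose was not tested. A difference between those 2 arrays therefore bears only on Prkcb, Prkch and Prkcz. Macrophage and hepatocyte markers followed the tissue labels. The summed signal of 8 macrophage markers was 44600 to 53500 on the macrophage arrays and 3170 to 5690 in liver, and that of 6 hepatocyte markers was 344 to 391 in macrophages and 81500 to 85300 in liver. The sum of 5 Kupffer cell markers did not separate the tissues, at 3620 to 6400 in macrophages and 3200 to 6340 in liver.

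Prkch, which encodes the eta isoform and is the targeted gene, had a signal on each macrophage array. Its brighter probe set (10396402) read 9.94, 9.86 and 9.31 log2 units in control macrophages, 9.70 ± 0.34 (SD, n = 3), and 9.36, 8.79 and 8.87 in knockout macrophages, 9.0 ± 0.31. Knockout replicate 1 lay just above control replicate 3, so the genotypes overlapped by that pair, which came from different batches. Within a batch every knockout array was below every control array. The difference was -0.70 ± 0.22 (SE; 95% interval -1.22 to -0.18), an estimated 61.6% of control, and ranked 23 by p among 15039 genes (limma, unadjusted p = 0.0161, Benjamini-Hochberg adjusted p = 1). Batch 1 gave -0.54 and batch 2 gave -0.49, and a fit with batch as a block gave -0.51 (limma, unadjusted p = 0.000246, Benjamini-Hochberg adjusted p = 0.932).

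The other Prkch probe set (10396419) gave 7.06, 7.14 and 6.85 for control macrophages and 6.85, 6.62 and 6.62 for knockouts. Control replicate 3 and knockout replicate 1 both read 6.85, and the other knockout values were below all control values. This difference of -0.32 ± 0.12 (SE, n = 3 and 3) was smaller than that of the brighter probe set (limma over all named probe sets, Benjamini-Hochberg adjusted p = 0.997). The brighter probe set in liver gave 6.57 and 6.87 for controls and 5.93 and 5.65 for knockouts, with no overlap, and the difference was -0.92 ± 0.16 (SE; 95% interval -1.30 to -0.55), or 52.7% of control. It ranked 12 by p among 15942 genes (limma, unadjusted p = 0.000454, Benjamini-Hochberg adjusted p = 0.573, between 0.0533 and 0.998 over the alternatives). The dimmer probe set read 4.08 and 4.04 in control liver and 3.94 and 4.21 in knockout liver. It lay below the filter of 4.87 there and did not separate the genotypes (0.01 ± 0.15, SE, n = 2 and 2). Averaging both probe sets brought the liver difference of the gene to -0.46. No background level of these probe sets is known. The liver knockout values of the brighter one stood at the 50 and 45.6 percentile of their arrays. Its macrophage knockout values stood much higher, at the 84.4, 79.3 and 80.4 percentile of replicates 1, 2 and 3. The percent of control is a ratio of signals and cannot be told apart from a larger loss over background. A probe set outside the removed part need not report the deletion, and where either probe set lies relative to that part is not known.

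**Figure D1:**
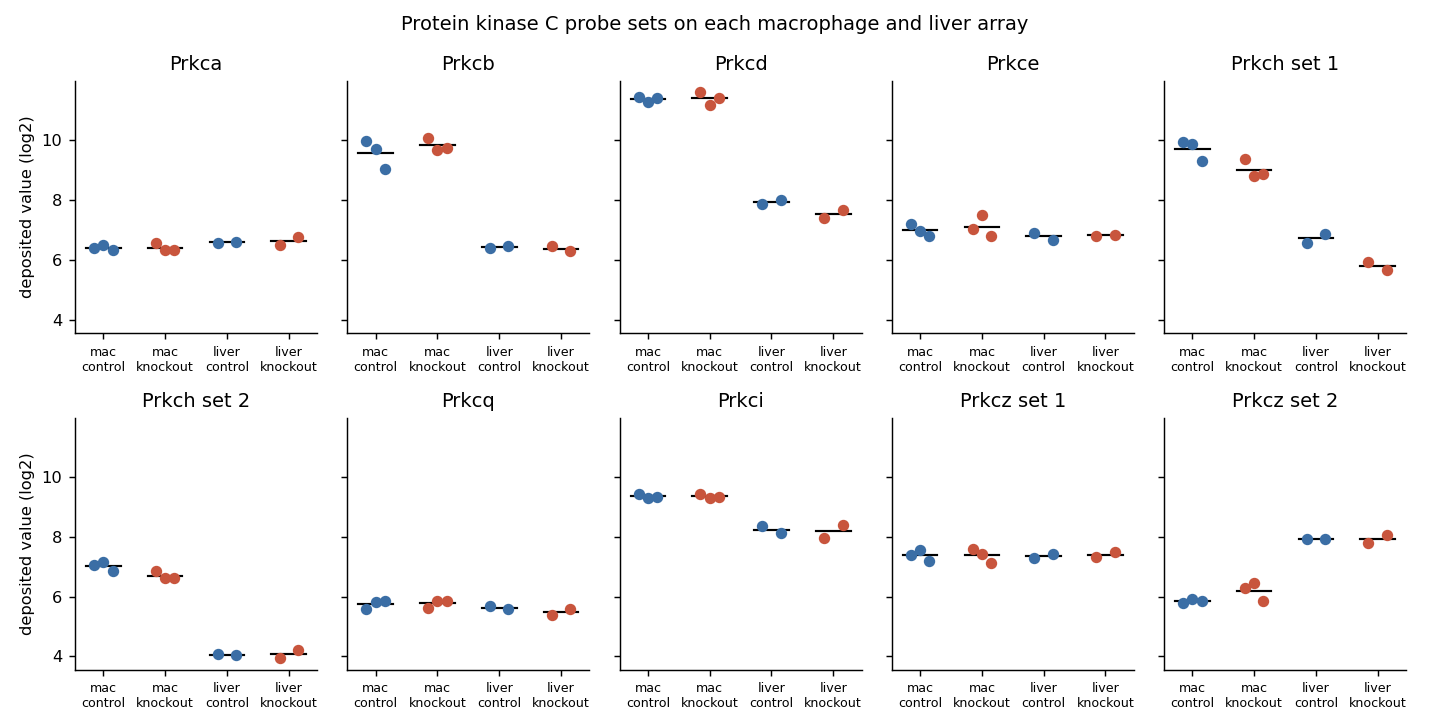
Deposited log2 value of each of the 10 protein kinase C probe sets (1 panel each) on the 6 macrophage and 4 liver arrays; points are arrays, blue control and red knockout, and lines are group means. Prkcd, Prkcb and both Prkch probe sets are high in macrophages, Prkcz set 2 is high in liver, and Prkch set 1 is the probe set with the clearest drop in knockouts of both tissues.

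Between control macrophages and control liver, 7 of 8 isoforms passed the test, 3 higher and 4 lower in macrophages, on arrays centred on their medians. Without centring 4 passed, all higher (Prkcb, Prkcd, Prkch and Prkci), and the lower calls of Prkca, Prkce, Prkcq and Prkcz were lost. For Prkcz this holds for the probe set that represents the gene here, while its other probe set kept its lower call (below). Over all 16363 genes tested 63.2% passed, 33.2% higher and 30% lower, so a call alone says little about an isoform and the sizes carry the description. The median absolute difference was 0.86 log2 units over the isoforms and 0.52 over all genes. Arrays were centred because the control medians differed by 0.78 log2 units. Without that centring every isoform moves by this amount toward macrophages. Sex, diet, age and feeding differed along with tissue and cannot be told apart from it.

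Prkcd, the delta isoform, had the largest excess in macrophages. It read 11.45, 11.26 and 11.42 log2 units in control macrophages and 7.85 and 8.0 in control liver. After centring the difference was 2.67 ± 0.14 (SE, n = 3 and 2), or 6.36-fold (limma, Benjamini-Hochberg adjusted p = 7.31e-08). Within macrophage arrays this probe set stood between the 96.1 and 96.7 percentile of all probe sets on each control array, and in liver between 79.0 and 81.0. The aorta was measured on another array type with another scale, so its levels, given further on, are not ranked against these.

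Prkcb, the beta isoform, read 9.97, 9.69 and 9.04 in control macrophages and 6.41 and 6.45 in control liver. It was 2.35 ± 0.19 log2 units or 5.10-fold higher in macrophages (limma, Benjamini-Hochberg adjusted p = 2.28e-06). Its spread among control macrophages, with an SD of 0.48, was the widest of the 8 isoforms and came from control replicate 3. Prkch followed, at 2.21 ± 0.18 or 4.62-fold higher (limma, Benjamini-Hochberg adjusted p = 2.10e-06). Its dimmer probe set gave nearly the same difference, 2.18 ± 0.12 or 4.52-fold. These 3 isoforms kept their direction and their call under each scaling and with each control array left out in turn. Without centring their differences were 3.45 for Prkcd, 3.13 for Prkcb and 2.99 for Prkch.

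Prkca, the alpha isoform, was close in deposited value between the settings, at 6.39, 6.49 and 6.33 in control macrophages and 6.57 and 6.60 in control liver. Relative to the array medians it was lower in macrophages by 0.96 ± 0.11 log2 units, or 1.95-fold (limma, Benjamini-Hochberg adjusted p = 2.27e-05). Without centring the difference was -0.18 and was not called (limma, Benjamini-Hochberg adjusted p = 0.173). The direction was the same under both scalings, and only the call depended on the scaling.

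The remaining diacylglycerol-activated isoforms, Prkce and Prkcq, had directions that turned with the scaling. Prkce, the epsilon isoform, read 7.21, 6.97 and 6.79 in control macrophages and 6.91 and 6.67 in control liver, -0.58 ± 0.19 after centring (limma, Benjamini-Hochberg adjusted p = 0.0214) and 0.20 without it. The Prkce call was lost without macrophage control replicate 2, macrophage control replicate 3 or liver control replicate 1 (limma, Benjamini-Hochberg adjusted p = 0.0574, 0.0594 and 0.152). Prkcq, the theta isoform, read 5.58, 5.81 and 5.85 in control macrophages and 5.70 and 5.57 in control liver, -0.67 ± 0.16 after centring (limma, Benjamini-Hochberg adjusted p = 0.00448) and 0.11 without it. Its macrophage values straddled the filter of 5.74 on dim genes, between the 25.5 and 33.6 percentile of each array.

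Prkci, the iota isoform, was the isoform with no call between the settings. It read 9.42, 9.29 and 9.33 in control macrophages and 8.35 and 8.12 in control liver. The difference was 0.33 ± 0.14 after centring (limma, Benjamini-Hochberg adjusted p = 0.061) and 1.11 without it, which was called (limma, Benjamini-Hochberg adjusted p = 2.67e-05). Its percentile was nearly level, 83.9 to 85.0 in macrophages and 82.1 to 84.0 in liver.

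Prkcz, the zeta isoform, gave different sizes from its 2 probe sets. Probe set 10519117 (set 1) read 7.39, 7.56 and 7.19 in control macrophages and 7.28 and 7.43 in control liver, a difference of -0.75 ± 0.13 after centring (limma, Benjamini-Hochberg adjusted p = 0.000485) and 0.03 without it. Probe set 10561335 (set 2) read 5.77, 5.92 and 5.85 in control macrophages against 7.91 and 7.91 in control liver, a difference of -2.84 ± 0.16 or 7.18-fold (limma over all named probe sets, Benjamini-Hochberg adjusted p = 1.94e-07). That was the widest tissue gap of the 10 probe sets on centred arrays. Without centring it was -2.06 and still called (limma, Benjamini-Hochberg adjusted p = 1.66e-06), but narrower than the gaps of Prkcd, Prkcb and both Prkch probe sets. RefSeq lists a pseudogene, Prkcz2, on chromosome 7, while Prkcz lies on chromosome 4. The number of set 2 (10561335) is nearest that of the Prkcb probe set (10557177), a gene of chromosome 7, and far from that of set 1. Whether set 2 reads Prkcz2 or Prkcz was not tested. Signal from Prkcz2 cannot be told apart from Prkcz here, so the values, above all the wide gap of set 2, are uncertain as to source.

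**Figure D2:**
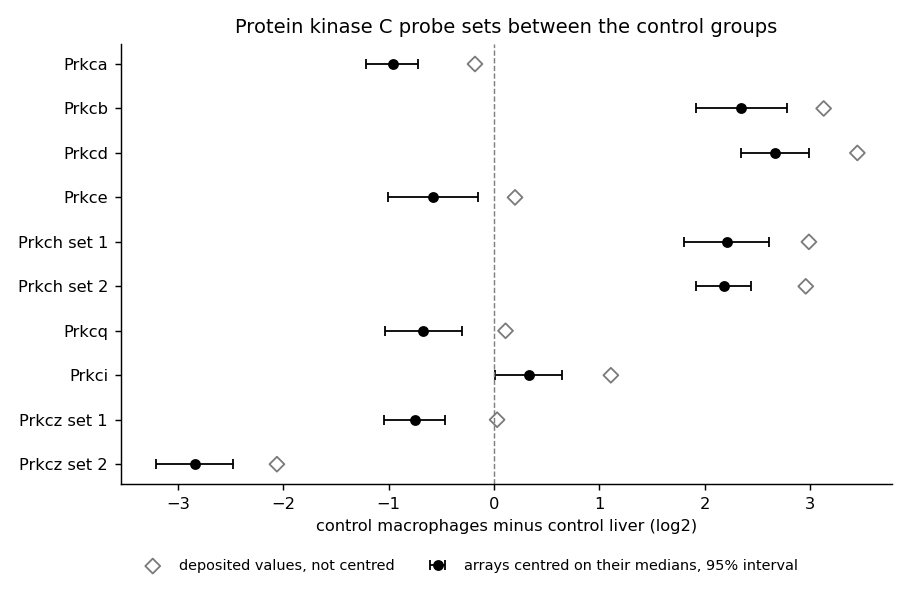
Control macrophages minus control liver in log2 units for each protein kinase C probe set. Filled points are limma estimates on median-centred arrays with 95% intervals (3 and 2 arrays) and open diamonds are the deposited values without centring; Prkcd, Prkcb and both Prkch probe sets lie above 2 on either scale, while the centred and uncentred values of Prkce, Prkcq and Prkcz set 1 sit on opposite sides of 0.

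In macrophages the comparison asks whether other isoforms moved when Prkch was deleted. None of the 8 isoforms passed the threshold, against 0% of all 15039 genes in limma at a Benjamini-Hochberg adjusted p under 0.05. At an unadjusted p under 0.05 in this fit, which has no batch block, there were 105 genes or 0.698%. Prkch was the only isoform among them, in the lower direction with 0.578% of genes. With batch as a block Prkcb was also under that unadjusted threshold (below). The median difference over the isoforms was 0.009 log2 units and over all genes -0.036. No isoform separated the genotypes on every array, against 0.652% of genes higher and 1.6% lower.

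Of the isoforms other than Prkch, Prkcb had the largest macrophage estimate. It read 10.06, 9.66 and 9.75 in knockouts beside 9.97, 9.69 and 9.04 in controls, and the genotypes overlapped, since control replicates 1 and 2 lay among the knockout values and control replicate 3 lay below them all. The difference was 0.26 ± 0.24 (SE; 95% interval -0.32 to 0.85; limma, Benjamini-Hochberg adjusted p = 1). Without control replicate 3 the difference was -0.002, and it was 0.24 within batch 1, 0.67 within batch 2 and 0.45 in the fit blocked on batch (limma, unadjusted p = 0.0219, Benjamini-Hochberg adjusted p = 0.932). B cells also express Prkcb. The summed signal of 7 B cell markers was 1730, 800 and 991 in controls and 746, 4020 and 878 in knockouts, highest in knockout replicate 2. The part of B cell content in the Prkcb values was not tested.

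Prkca, Prkcd and Prkci differed little between macrophage genotypes. Prkca read 6.56, 6.34 and 6.33 in knockouts, a difference of 0.01 ± 0.10 (95% interval -0.23 to 0.24). Prkcd read 11.59, 11.16 and 11.42, a difference of 0.01 ± 0.13 (95% interval -0.29 to 0.32). Prkci read 9.44, 9.29 and 9.33, a difference of 0.01 ± 0.08 (95% interval -0.19 to 0.21). These intervals leave room for changes up to their bounds, and the Prkci interval was the narrowest of the 8 isoforms. For all 3, control replicate 3 and knockout replicate 3 carried the same deposited value, so these intervals rest in part on tied values.

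Prkce read 7.02, 7.49 and 6.79 in knockout macrophages, with knockout replicate 2 above every other macrophage array. Its difference was 0.11 ± 0.20 (95% interval -0.36 to 0.58), and -0.083 without that array. The mast cell marker sum was also highest in knockout replicate 2, at 1840, against 603 and 661 in the other knockouts and 963 to 1030 in controls. That was not particular to mast cells. The B cell (4020), T cell (1220), macrophage (53500) and Kupffer cell (6400) sums were highest on that array too. Those of mesothelium, smooth muscle, endothelium and adipocytes were lowest there. The part of cell content in the Prkce value was not tested. Prkcq read 5.63, 5.85 and 5.85 and carried 1 value on all 3 arrays of batch 2. Prkcz set 1 read 7.60, 7.43 and 7.12 in knockouts, a difference of 0.00 ± 0.15, while its other probe set read 6.28, 6.45 and 5.85 beside controls of 5.77 to 5.92. That second Prkcz probe set was higher in knockout replicates 1 and 2, with a difference of 0.34 ± 0.16 (95% interval -0.04 to 0.73), and the knockout replicate 3 value equalled that of control replicate 3.

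**Figure D3:**
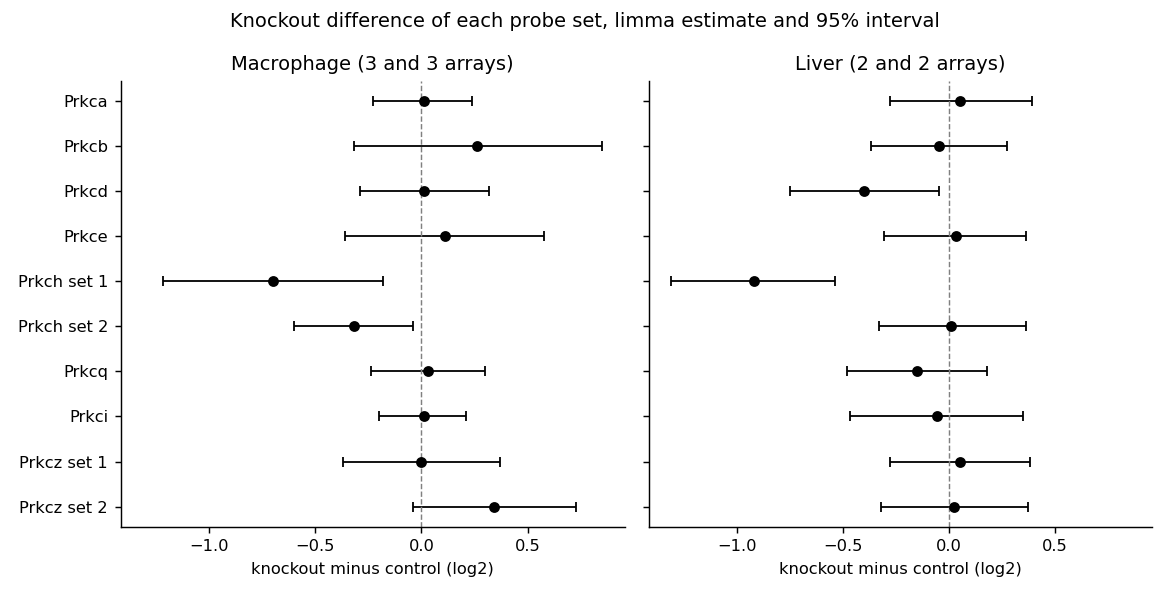
Knockout minus control difference in log2 units of each protein kinase C probe set in macrophages (left, 3 and 3 arrays) and liver (right, 2 and 2 arrays); points are limma estimates from the fit over all named probe sets and bars are 95% intervals. Only Prkch set 1 lies well below 0 in both panels, Prkch set 2 is below 0 in macrophages alone, and the Prkcd interval lies below 0 in liver.

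In liver, 0 of 8 isoforms passed the threshold, against 0.00627% of 15942 genes (1 gene) in limma at a Benjamini-Hochberg adjusted p under 0.05. At an unadjusted p under 0.05, 2 isoforms were lower, Prkch and Prkcd, against 2.75% of all genes lower and 4.29% in either direction. The same 2 isoforms were lower on both knockout arrays than on either control array, a pattern that 18% of genes showed, with another 11.8% higher. The median difference was -0.056 log2 units over the isoforms and -0.023 over all genes.

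Prkcd was, after Prkch, the isoform with the largest liver difference. Control livers read 7.85 and 8.0 and knockout livers 7.39 and 7.66, which did not overlap. The difference was -0.40 ± 0.15 (SE; 95% interval -0.74 to -0.06), or 75.8% of control (limma, unadjusted p = 0.0267, Benjamini-Hochberg adjusted p = 1). Leaving out 1 array at a time gave -0.53 to -0.27. Macrophage markers went the same way in these livers. All 8 macrophage markers had lower means in knockout liver, with a median difference of -0.23. Their summed signal was 4210 and 5690 in controls and 3170 and 3720 in knockouts. None of these 8 markers passed the threshold and each was measured above the filter. A lower direction was not particular to them. Lower means were found for 6 of 6 endothelium (median -0.07), 5 of 6 T cell (-0.15) and 2 of 2 adipocyte markers (-0.39). Among hepatocyte markers 5 of 6 were higher, and among mesothelium markers 6 of 7.

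Cd68, the lysosomal glycoprotein of macrophages, read 9.58 and 9.94 in control liver and 8.71 and 9.12 in knockout liver (-0.84 ± 0.18, SE). Lyz2, the lysozyme gene of myeloid cells, differed by -0.65 ± 0.20. The 5 Kupffer cell markers had a median difference of -0.62 and sums of 4980 and 6340 in controls against 4690 and 3200 in knockouts, and none passed the threshold. That median rests on knockout replicate 2: without it 3 of the 5 were higher and 2 lower, with a median of 0.16, and Cd5l alone was below both controls on both knockout arrays. The macrophage marker median was -0.22 without knockout replicate 2 and -0.09 without control replicate 2, where 5 of the 8 were lower; leaving out arrays here was added after the data were seen. Hepatocyte marker sums were 81500 and 83000 in controls and 82600 and 85300 in knockouts. Prkcb and Prkch, likewise higher in peritoneal macrophages than in liver, differed in liver by -0.05 ± 0.13 (95% interval -0.36 to 0.25) and by the -0.92 given above. In bulk tissue fewer cells of a type and less RNA per cell cannot be told apart, and the part of macrophage content in the Prkcd and Prkch values was not tested.

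**Figure D4:**
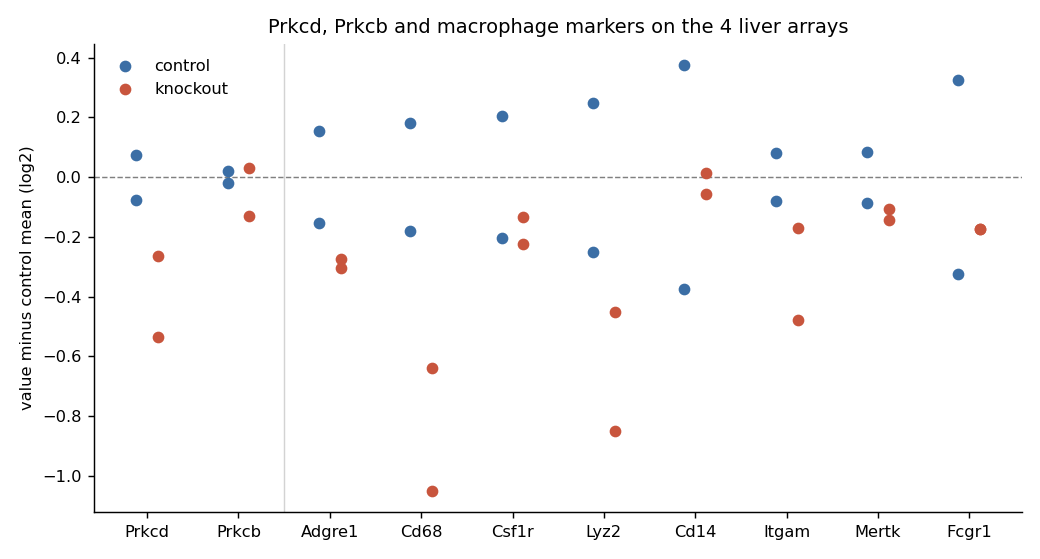
Prkcd, Prkcb and the 8 macrophage markers on the 4 liver arrays, as log2 value minus the mean of the 2 control arrays; blue points are control and red points knockout. Both knockout points lie below both control points for Prkcd, Adgre1, Cd68, Lyz2, Itgam and Mertk, while Prkcb, Csf1r, Cd14 and Fcgr1 overlap between genotypes.

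The other isoforms in liver overlapped between genotypes. Prkca read 6.51 and 6.76 in knockouts, a difference of 0.05 ± 0.14, and Prkce read 6.81 and 6.83, a difference of 0.03 ± 0.14. Prkci read 7.97 and 8.38, a difference of -0.06 ± 0.17. Prkcq read 5.39 and 5.58, a difference of -0.15 ± 0.14. The other probe set of Prkcz read 7.32 and 7.48 in knockouts, a difference of 0.05 ± 0.14. Prkcz is represented in liver by probe set 10561335, which may carry signal of the pseudogene Prkcz2. It read 7.80 and 8.07, a difference of 0.02 ± 0.14. For Prkca, Prkci and this Prkcz probe set the control values lay between the knockout values, and for Prkce the knockout values lay between the controls. For Prkcq 1 knockout array was below both controls and the other between them.

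The knockout difference of each isoform was also compared between macrophages and liver. No isoform passed, in a contrast where 0% of 16363 genes did in limma at a Benjamini-Hochberg adjusted p under 0.05 and 2.11% had an unadjusted p under 0.05, again with no isoform. Prkcd had the largest gap, with the macrophage difference above the liver difference by 0.41 ± 0.20 (SE; 95% interval -0.04 to 0.87; limma, unadjusted p = 0.071, Benjamini-Hochberg adjusted p = 1). The lower Prkcd values of knockout liver are thus not shown to be particular to liver. For Prkch the gap was 0.23 ± 0.32 (95% interval -0.48 to 0.93), and for Prkcb it was 0.31 ± 0.33.

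In the aorta the pools were single arrays, so values have no replicate check. Of the 8 isoforms 4 were above the filter on dim genes, a signal of 32.6, and none of those 4 reached a 2-fold difference, against 1.27% of 7098 genes (0.873% higher and 0.394% lower). Prkci had a control signal of 153 and a knockout signal of 154. Prkce read 102 and 93.5, and Prkcd read 87.0 and 88.0. Prkcb was the kept isoform with the widest gap, at 57.2 and 86.4, a ratio of 1.51 and 0.48 on the log2(signal + 16) scale. Its other probe set, below the filter, read 15.8 and 19.4.

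Lymphocyte markers differed between the aorta pools in the same direction as Prkcb. The summed signal of 7 B cell markers was 118 in controls and 728 in knockouts, with 3 of the 7 above the filter and Ms4a1, the gene of CD20, at 49.9 and 453. T cell marker sums were 134 and 307, with 4 of 7 markers above the filter and Cd3d, a subunit of the T cell receptor complex, at 6.08 and 87.5. Macrophage marker sums were 3700 and 4000, and those of skeletal muscle 11500 and 7290. Adipocyte marker sums were 6100 and 6510, and those of smooth muscle 3790 and 4660. Skeletal muscle and adipocyte markers were thus bright in both pools, and the isoform signals are those of mixed tissue. The part of cell content in the Prkcb values was not tested. Prkcq, the isoform best known from T cells, had a control signal of 17.4 and a knockout signal of 11.5, both too dim for a direction to be read.

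The target Prkch was dim in the aorta, at 17.2 and 9.94, a ratio of 0.578. Prkca read 11.7 and 13.8 on its brighter probe set and 3.78 and 0.828 on the other. The Prkcz probe sets read 4.65 and 14.8, and 5.69 and 3.46, in opposite directions. The second probe sets of Prkce and Prkci were also dim, at 11.7 and 8.32 for Prkce and 6.19 and 2.61 for Prkci. Signals this low have no reliable ratio on these arrays, and the Prkcz difference on the log2 scale ran from 0.20 to 1.48 over the alternatives.

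**Figure D5:**
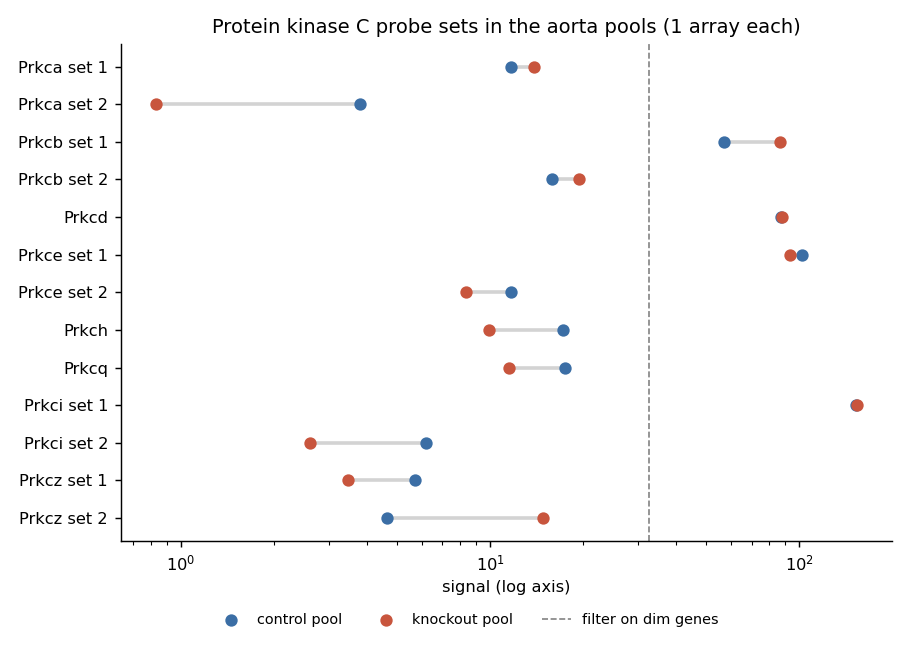
Signal of the 13 protein kinase C probe sets on the 2 aorta arrays, on a log axis; blue is the control pool, red the knockout pool, and the dashed line is the filter on dim genes at 32.6. Only Prkci set 1, Prkce set 1, Prkcd and Prkcb set 1 lie right of the line, and among these Prkcb shows the widest gap.

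The genes around the isoforms, from suppliers of diacylglycerol to substrates, were set beside them as 6 lists of 79 genes in all. In macrophages 59 were tested, 31 higher and 28 lower in knockouts, and 0 passed limma's threshold. In liver 66 were tested, 29 higher and 36 lower, and again 0 passed. In the aorta 0 of 32 reached 2-fold, 17 being higher and 15 lower. Among the smallest p-values, Plcd1, a phospholipase C that makes diacylglycerol, differed by -0.34 ± 0.13 in liver. Ncf1, the p47phox subunit of the NADPH oxidase and a protein kinase C substrate, differed by -0.39 ± 0.16 in liver and by 0.23 ± 0.26 in macrophages. Ppp1r14a, the phosphatase inhibitor CPI-17 that protein kinase C activates in smooth muscle, differed by 0.40 ± 0.19 in liver. None of these 3 passed (limma, Benjamini-Hochberg adjusted p = 1).

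In macrophages the smallest p-values of the lists belonged to Pebp1, the Raf inhibitor that protein kinase C phosphorylates, at -0.32 ± 0.18, and to Cdc37, a cochaperone of kinases, at -0.19 ± 0.11. Rasgrp1, a diacylglycerol-binding activator of Ras, differed by 0.42 ± 0.40. All 4 measured relatives of protein kinase C (protein kinase D and N genes) had positive estimates, with a median of only 0.02. In the aorta Marcksl1, a MARCKS-like substrate, read 29.5 and 63.0, 0.80 on the log2(signal + 16) scale, and Unc13b, a diacylglycerol-binding vesicle priming factor, read 76.5 and 49.2.

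Between control macrophages and control liver, 29 of the 66 list genes were called higher and 21 lower, in a contrast that called 63.2% of all genes (33.2% higher and 30% lower) on centred arrays and far more higher than lower genes without centring. Of 7 diacylglycerol kinases, which remove the lipid that activates most isoforms, 6 were called higher in macrophages and 1 lower, with a median difference of 1.25 log2 units against 0 over all genes. Dgkz was higher by 2.19 ± 0.10 and Dgkd by 1.58 ± 0.12, while Dgki was lower by 0.63 ± 0.19, less than the 0.78 shift of the array medians, so that its direction turns without centring. Plcg2, the phospholipase C of immune receptors, was higher by 2.18 ± 0.10, and Plcg1, its widely expressed relative, was lower by 0.79 ± 0.11, a difference about the size of that shift which nearly vanishes without centring. Ncf1 was higher by 3.72 ± 0.26. The polarity scaffold Pard3, which binds the atypical isoforms, was lower in macrophages by 2.75 ± 0.14.

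The genes whose values ran most closely with Prkch were sought over the 10 macrophage and liver arrays, after the mean of each tissue was subtracted, among 14948 genes. Lin37, a subunit of the DREAM complex, had the highest Pearson correlation, r = 0.96. It read 8.47, 8.44 and 8.09 in control and 8.31, 8.01 and 8.09 in knockout macrophages, and 7.32 and 7.43 in control and 7.12 and 6.96 in knockout liver. Rap2b, a small GTPase, had r = 0.95. Klhl21, an adaptor of cullin 3, Glt1d1, a glycosyltransferase domain protein, and Flcn, the folliculin gene, each had r = 0.93. Glt1d1 was dim in macrophages, at 5.38 to 5.53 on those arrays, under the filter of 5.74. The points behind each correlation share tissue, batch and genotype, and the values describe these arrays alone. No other isoform stood out by this measure. Prkcd had r = 0.54, at the 77.2 percentile of all genes compared, while Prkcz (0.23) and Prkcb (0.21) lay below the median gene and Prkcq was lowest at -0.18.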

How the data were processed

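Macrophage and liver RNA was measured on 10 Affymetrix Mouse Gene ST arrays and aorta RNA on 2 Mouse 430A arrays. Per the submitters' processing notes, the authors used Affymetrix Expression Console, with version, algorithm and build not given in the sources used here. From their ranges, the authors' macrophage and liver values are log2 summaries and their deposited aorta values linear signal intensity. Neither was normalized again, except that arrays were centred on their medians to contrast control macrophages with control liver.

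Only probe sets with 1 symbol in the platform annotation were used, the brightest for each gene. Genes under the 30th percentile of mean probe set value were dropped, and in the aorta genes whose brighter array was under the median. Each tissue was fitted alone with limma 3.58.1 (lmFit, eBayes) in R 4.3.3, and a fit over all 10 arrays gave the contrasts between tissues. The threshold was a Benjamini-Hochberg adjusted p of 0.05 over all genes tested. A fit over all named probe sets gave each isoform probe set its own difference. Aorta differences, on the log2(signal + 16) scale, understate changes of dim genes and have no test. Intervals are at 95%, and the number of arrays limits precision. P-values measure the spread between arrays that the labels call biological replicates. The computations were tested on simulated data that held no batches and no tied values. That test does not bear on the tied macrophage arrays.

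The isoforms, gene lists and marker lists were chosen with earlier results of these data known. By rule, each list could give up to 3 names per tissue (smallest p, or largest difference in the aorta), each cell type its 2 brightest markers, and the correlation with Prkch its top 5 genes, passing over predicted genes and pseudogenes. List genes described between tissues, and the remaining markers in the liver plot, were named after their values were seen. Alternatives covered normalization, filters, probe set choice, the prior, batch, replicate block, pseudocount and leaving out each array.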

Additional observations from a re-analysis of the deposited data

How the results depend on the processing

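No isoform was called in macrophages or in liver under any alternative run, and Prkch stayed lower in both tissues under all of them, at -0.89 to -0.49 in macrophages and -1.08 to -0.46 in liver. With 1 array left out at a time, the macrophage difference ran from -0.068 to 0.0501 for Prkca, -0.002 to 0.4637 for Prkcb, -0.086 to 0.125 for Prkcd, -0.083 to 0.2629 for Prkce, -0.0512 to 0.1058 for Prkcq, -0.0402 to 0.0425 for Prkci and -0.1051 to 0.1326 for Prkcz, each on both sides of 0. In liver it ran from -0.0739 to 0.1763 for Prkca, -0.1315 to 0.0279 for Prkcb, -0.0951 to 0.1515 for Prkce, -0.263 to 0.1439 for Prkci and -0.1124 to 0.1602 for Prkcz. The gap between the tissues' differences ran from -0.171 to 0.0792 for Prkca, -0.1112 to 0.2347 for Prkce, -0.1386 to 0.2684 for Prkci and -0.155 to 0.0827 for Prkcz. With the batch as a block Prkcq in macrophages turned to -0.0302. Without centring, the contrast of control macrophages with control liver turned to 0.2012 for Prkce, 0.113 for Prkcq and 0.0285 for Prkcz, and called 12062 genes higher and 1788 lower in place of 5434 and 4913; the shift of the medians accounts for these turns by construction.

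Counts over all genes moved as follows. Liver called 1 gene; it called 0 with quantile normalization, no filter, all 10 arrays in 1 fit or a trended prior, and 0 to 36 with 1 array left out, 36 without liver knockout replicate 2. With the replicate block liver called 23 genes, 11 higher and 12 lower, and the adjusted p of Prkch was 0.0533 (limma, Benjamini-Hochberg); macrophages called 0. Same-numbered arrays correlated at 0.40, 0.03 and 0.50 in macrophages and 0.11 and 0.11 in liver. In macrophages the arrays numbered 2 lay in different batches, and those numbered 3 had equal values for 55.7% of genes. These correlations therefore cannot settle whether the samples are paired. By the labels same-numbered macrophage mice of both genotypes had the same age. The main fits did not take replicate numbers as pairs, and the replicate block is the fit that does. With that block the macrophage Prkch difference of -0.70, lower in 3 of 3 numbered pairs, had an adjusted p of 0.95 (limma, Benjamini-Hochberg). Of the arrays, 4 of 6 macrophage and 4 of 4 liver arrays correlated best with their own number. With 2 liver arrays per genotype, both numbers gave the same 0.11, so the liver count is not 4 separate results. The contrast of the tissues' differences called 0 to 1 genes with 1 array left out, the 1 without liver knockout replicate 2. The aorta count of 90 genes became 169 with a pseudocount of 1 and 37 with 64. The causes of these moves were not tested. With 2 arrays per genotype in liver, changes smaller than the printed intervals could not be seen. The aorta, with 1 array per genotype, has no interval, so the size of change that could be seen there is not known.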
